A study of Drosophila melanogaster with 2 samples.

Results

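The nuclear tRNA genes of Drosophila melanogaster were examined for peaks of CG7745-GFP, a protein mapped on chromatin by ChIP-seq. All genes that the Ensembl release 115 annotation lists as tRNA on the main arms (X, 2L, 2R, 3L, 3R and 4) were taken, which gave 290 of the 18164 annotated genes on these 6 arms (transposable elements left out). They lay on 2L (41 genes), 2R (98), 3L (48), 3R (79) and X (24), and none on 4. In ChIP-seq, chromatin fragments holding a protein are pulled down with an antibody and their DNA is sequenced, and stretches with more reads than a control are called as peaks, each with a summit where the signal is highest. The chromatin came from whole embryos aged 0 to 12 hours of a transgenic line with CG7745 fused at its C-terminus to GFP, and no group without the fusion protein was analysed here. The labels describe an antibody against GFP, although their antibody field names CG7745, and they place both libraries, biological replicates 2 and 3, in 1 group. Whole embryos mix all cell types, so the peaks do not tell in which cells the protein was bound. The deposited files, on genome build dm6, were a list of peaks from each replicate (29981 nuclear peaks for replicate 2 and 30000 for replicate 3), a list of 30000 peaks called on both replicates pooled, and a reproducible set of 1874 peaks selected by the irreproducible discovery rate (IDR). All lists were called against the same control, and the files hold no read counts, so depth is unknown and list length is not depth.

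A tRNA carries an amino acid to the ribosome and reads the matching codon with its anticodon. Its gene is transcribed by RNA polymerase III, which in most tRNA genes is placed by promoter elements inside the gene itself: the assembly factor TFIIIC binds the A box, near the start, and the B box, near the other end, and then sets TFIIIB just before the start, where it recruits the polymerase. A run of T after the gene ends transcription. Fly tRNA genes are named by amino acid, anticodon and copy (Leu-CAG-1-5 is a copy of a leucine tRNA with anticodon CAG), many have identical copies, and many stand in clusters on several arms.

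The annotated genes carried the sequence features of tRNA genes, and 6 of those with an IDR summit within 500 bp are printed to show what lay at these peaks. The capitals mark the A box core GNNNAGNNG within the first 30 bases and the B box core GTTCNANNC within the last 35. Each gene is given on its own strand from its first to its last base, read from the Release 6 (dm6) RefSeq genome, at chr3R:17617761-17617833 (plus strand), chr3R:8669081-8669174 (minus), chrX:3427452-3427523 (minus), chr3R:24112964-24113047 (plus), chr3R:17618110-17618181 (minus) and chr2L:8541761-8541832 (plus), in this order.
tRNA:Val-CAC-1-1: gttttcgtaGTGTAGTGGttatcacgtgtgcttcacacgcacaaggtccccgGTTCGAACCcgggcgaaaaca
tRNA:Tyr-GTA-1-8: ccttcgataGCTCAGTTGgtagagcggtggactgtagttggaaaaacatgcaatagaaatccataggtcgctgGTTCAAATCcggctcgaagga
tRNA:Gln-TTG-2-1: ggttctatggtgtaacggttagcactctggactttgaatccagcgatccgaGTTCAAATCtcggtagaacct
tRNA:Leu-TAA-2-1: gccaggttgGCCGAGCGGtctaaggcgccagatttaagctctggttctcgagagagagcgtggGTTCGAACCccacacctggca
tRNA:Pro-TGG-1-1: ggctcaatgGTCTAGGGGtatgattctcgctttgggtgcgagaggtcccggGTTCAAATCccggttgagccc
tRNA:Asp-GTC-1-5: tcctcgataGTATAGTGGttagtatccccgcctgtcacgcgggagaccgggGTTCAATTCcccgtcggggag
The A core began at base 10 in 5 of these and had no match in tRNA:Gln-TTG-2-1, and the B core was found in all 6. Tyr-GTA-1-8 is longer than the others because it holds an intron within the anticodon loop, as 16 of the 290 genes do.

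The strongest peak at any tRNA gene lay beside tRNA:Leu-CAG-1-5 (chr3L:8065643-8065725, minus strand), and the DNA around its summit is printed because the identical copies of this gene differed only outside it. The run covers chr3L:8065725-8065862 on the gene's strand, from 60 bases past the summit to the first base of the gene, in lower case with no capitals. The summit, at position 8065802, was at -77 bp (negative positions are before the start of the gene).
Leu-CAG-1-5 upstream: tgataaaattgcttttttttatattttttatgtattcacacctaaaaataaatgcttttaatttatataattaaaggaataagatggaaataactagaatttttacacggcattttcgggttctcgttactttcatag
The 40 bases before the start of 5 identical copies on the same arm follow, those of the 3 copies that share a single IDR summit first, then Leu-CAG-1-6, whose IDR summit lay inside the gene, and Leu-CAG-1-7, which had none.
Leu-CAG-1-2 upstream: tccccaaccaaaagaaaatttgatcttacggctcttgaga
Leu-CAG-1-3 upstream: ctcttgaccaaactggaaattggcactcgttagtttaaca
Leu-CAG-1-4 upstream: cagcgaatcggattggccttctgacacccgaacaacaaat
Leu-CAG-1-6 upstream: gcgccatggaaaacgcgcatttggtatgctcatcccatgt
Leu-CAG-1-7 upstream: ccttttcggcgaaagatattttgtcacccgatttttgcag
All 8 copies of the Leu-CAG-1 gene had the same 83 bases, so the copies with and without an IDR summit shared the A and B boxes base for base.

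Peaks lay at tRNA genes more often than at annotated genes in general, in the reproducible set and in each of the other lists. All 4 lists come from the same 2 libraries, so they are not separate lines of evidence. Every IDR summit at a tRNA gene was also a pooled summit with the same rank, and the 1874 strongest pooled peaks gave the same count of tRNA genes. A gene was counted when a summit lay within 500 bp of its start. In the IDR set 33 of 290 tRNA genes were counted (11.4%, exact Clopper-Pearson 95% interval 7.96 to 15.6%), against 4.78% of all 18164 genes and 5.23% of the 13945 protein-coding genes. In the pooled list 187 were counted (64.5%, interval 58.7 to 70%), against 41% of all genes and 44.2% of protein-coding genes. In replicate 2 alone 171 were counted (59%), against 38.8% of all genes and 41.6% of protein-coding genes, and in replicate 3 alone 170 (58.6%), against 41.2% and 44.4%. These intervals cover the counting of genes only, and genes that share a summit are not independent: the 33 genes lay near 23 distinct summits and the 187 near 161. Only 16 tRNA genes were overlapped by an IDR peak interval itself, so about as many had their summit beside them without being covered by the peak.

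All 33 genes with an IDR summit also had a summit within 500 bp in the pooled list and in both replicates. For the pooled list this was given beforehand, because these IDR summits are pooled summits too. For the replicates it was largely built in, because the IDR set was selected for reproducibility in the same libraries. A further 98 tRNA genes had a summit in the pooled list and in both replicates without one in the IDR set. No summit of any of the 4 lists lay within 500 bp of 78 tRNA genes (26.9%), and the other 212 had at least 1.

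At every length of list examined, from the 200 strongest peaks on, the share was higher for tRNA genes than for protein-coding or other noncoding genes. Among the 200 strongest pooled peaks a summit lay at 4 tRNA genes (1.38%, against 0.681% of protein-coding genes). In replicate 3 it lay at 3 (1.03% against 0.667%). Neighbouring Leu-CAG genes share the strongest of these summits. With so few genes, the gap at 200 peaks cannot be called a difference. Among the strongest 5000 pooled peaks a summit lay at 71 tRNA genes (24.5% against 13.4%), and among the strongest 10000 at 117 (40.3% against 23.6%). Of the genes with any pooled summit, the tRNA genes had their strongest one at a median rank of 6414, the protein-coding genes at 9226.5 and the other noncoding genes at 12357. Counted by gene, the tRNA genes stood higher in the list as well as being counted more often. Genes that share a summit each count it, so these medians are not ranks of distinct summits and not independent of the counts.

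**Figure D1:**
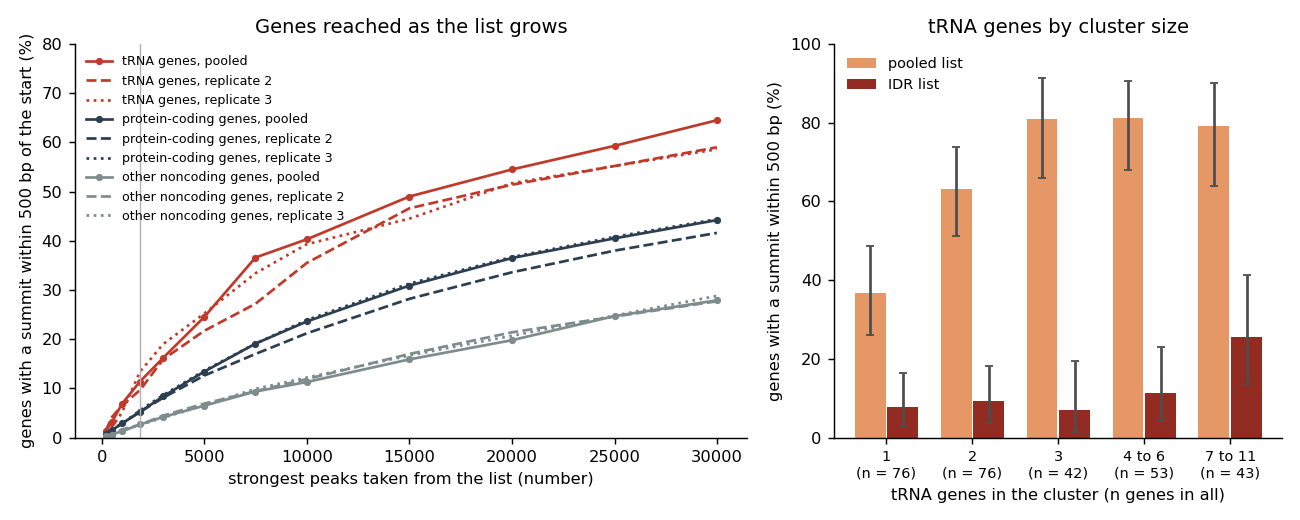
Left: share of genes with a summit within 500 bp of the start (y axis, percent) as more of the strongest peaks of a list are taken (x axis, number of peaks), for tRNA, protein-coding and other noncoding genes in the pooled list (solid, points), replicate 2 (dashed) and replicate 3 (dotted), with a grey line at 1874 peaks, the size of the IDR set. The pooled tRNA curve ends at 64.5%, the protein-coding one at 44.2%. Right: share of tRNA genes with a summit (y axis, percent) by the number of tRNA genes in the cluster (x axis), in the pooled list (light) and the IDR set (dark), with exact 95% intervals; the pooled bars go from 36.8% for single genes to 79.1% for clusters of 7 to 11.

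Most of these summits lay away from protein-coding promoters, as did most summits of each list. Of the 23 IDR summits at tRNA genes, 7 (30.4%) also lay within 500 bp of a protein-coding start, against 733 of all 1874 IDR summits (39.1%). With so few summits at tRNA genes, this gap cannot be called a difference. In the pooled list the part at protein-coding starts was 18.6% (30 of 161), against 26.3% of all 30000. Among the 1874 strongest peaks of replicate 3 alone, 8 summits at tRNA genes lay at protein-coding starts, and among those of replicate 2 alone, without replicate 3, 4 did. Of the 33 genes with an IDR summit, 9 were near a summit at a protein-coding promoter, which cannot be assigned to the tRNA gene or to the promoter, and 24 were near summits away from such promoters only.

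Far from protein-coding starts, tRNA genes had peaks more often than other noncoding genes. Of 211 tRNA genes that started more than 1000 bp from any protein-coding start, 21 had an IDR summit (9.95%, interval 6.27 to 14.8%) and 127 a pooled one (60.2%). Of 2823 other noncoding genes equally far away, 55 had an IDR summit (1.95%) and 650 a pooled one (23%). Other small RNA genes were counted at any distance from protein-coding starts, beside 11.4% (IDR) and 64.5% (pooled) of all 290 tRNA genes. Of 269 snoRNA genes, 14 had an IDR summit (5.2%) and 84 a pooled one (31.2%). The snoRNAs guide the modification of other RNAs, and most are made from introns by RNA polymerase II. Of 32 small nuclear RNA (snRNA) genes, 2 had an IDR summit (6.25%, interval 0.766 to 20.8%) and 15 a pooled one (46.9%, interval 29.1 to 65.3%). Of the 5 genes annotated as tRNA pseudogenes, which are not among the 290, 1 had an IDR and 2 a pooled summit.

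The strongest site was the group of Leu-CAG genes, whose tRNA reads the leucine codon CUG. The summit at -77 bp of Leu-CAG-1-5 had a signal, the authors' own value with no stated scale, of 1763 in the pooled list, where it ranked 9 of 30000. It had a signal of 607.9 and rank 10 in replicate 2, and 1142 and rank 8 in replicate 3. A second summit in the same peak interval (chr3L:8065436-8066333) lay inside Leu-CAG-1-6, 56 bp past its start, with pooled signal 578.3 and rank 57, and ranks of 40 in replicate 2 (signal 272.2) and 76 in replicate 3 (313.1). Both genes lie in an intron of Sarm, on its opposite strand. Another summit of the same cluster, at -32 bp of Leu-CAG-1-3 and within 500 bp of Leu-CAG-1-2 and Leu-CAG-1-4, had a pooled signal of 255.9 (rank 351), with 116.8 (rank 265) in replicate 2 and 128.2 (rank 617) in replicate 3. Strong peaks were also found between the tRNA genes of this cluster: 2 further IDR summits, 3171 and 3730 bp from its first base and more than 500 bp from every tRNA gene start, had pooled signals of 417.1 (rank 114) and 269.8 (rank 314). The order of the 3 summits at tRNA genes by signal was the same in the pooled list and in both replicates.

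The next strongest summit, at the valine gene Val-CAC-1-1, lay farther out, at -325 bp. Its pooled signal was 507.3 (rank 71), with 209.4 (rank 66) in replicate 2 and 316.1 (rank 74) in replicate 3. The isolated glycine gene Gly-TCC-2-2, whose tRNA reads GGA, had a summit at -177 bp with a pooled signal of 326.6 (rank 199), 148.7 (rank 144) in replicate 2 and 187.2 (rank 260) in replicate 3. These 2 and the 2 summits at Leu-CAG-1-5 and Leu-CAG-1-6 were the 4 at tRNA genes among the 200 strongest IDR peaks, and their ranks stayed within 260 in both replicates.

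The other summits among the 10 strongest were weaker. The tyrosine gene Tyr-GTA-1-8 had one at -219 bp with pooled signal 245.9 (rank 393), 105.3 (rank 342) in replicate 2 and 141.7 (rank 479) in replicate 3, and this summit was also 225 bp from the start of CG8036. Gln-TTG-2-1, an isolated gene for the glutamine tRNA that reads CAA, had one at -213 bp with 226.6 (rank 482), 108.8 (rank 316) and 119.2 (rank 733) in the same order of lists. These 2 genes each had a whole sequence that no other tRNA gene shared. The asparagine genes Asn-GTT-1-2 and Asn-GTT-1-3, in an intron of the ecdysone receptor gene EcR, shared a summit at 178 bp from the first of them with 217.2 (rank 536), 95.17 (rank 440) and 125.3 (rank 653). Ile-AAT-1-9, an isolated isoleucine gene, had its summit at -484 bp, near the 500 bp limit, with 209.4 (rank 582), 51.32 (rank 2131) and 168.8 (rank 328), and its ranks in the replicates were the farthest apart of the 10. The replicate 2 summit matched to it lay at -531 bp, outside the limit. Inside the limit, replicate 2 had another summit, 98 bp past the start of Ile-AAT-1-9, with signal 16.7 and rank 22791. The histidine gene His-GTG-1-3 had its summit at -110 bp, 140 bp from the start of CG8490, with 208.6 (rank 584), 82.69 (rank 650) and 126.3 (rank 637).

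**Figure D2:**
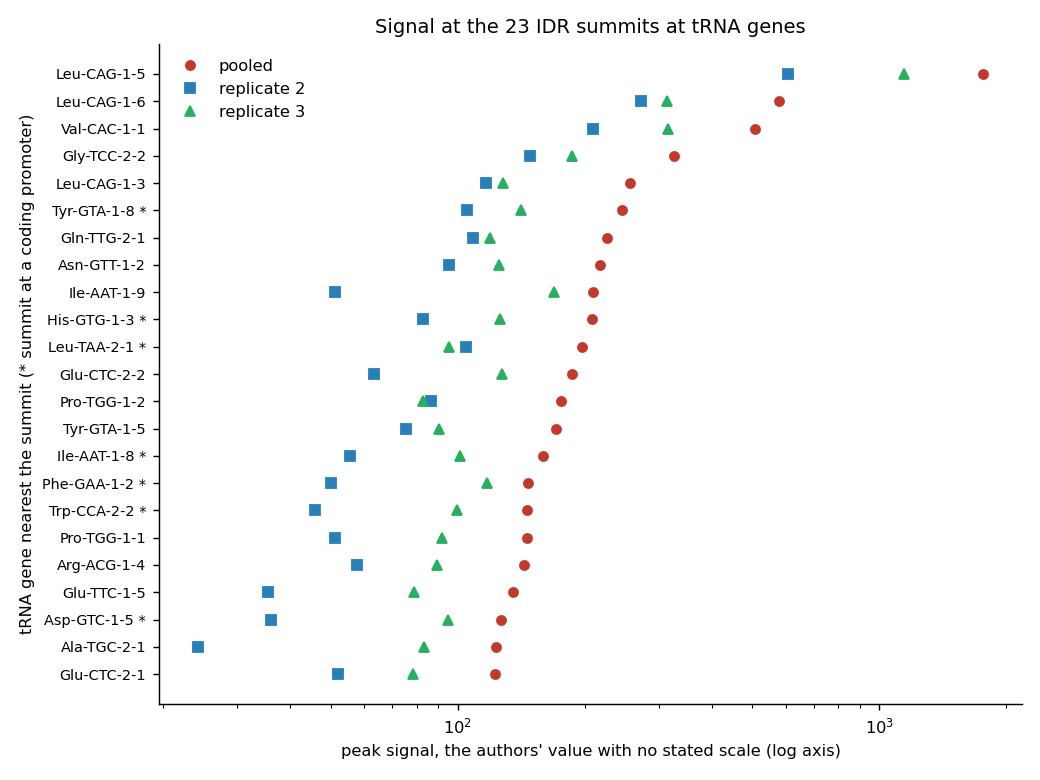
Peak signal (x axis, the authors' value, log axis) at the 23 IDR summits at tRNA genes, ordered by pooled signal and named by the nearest tRNA gene (y axis), in the pooled list (circles), replicate 2 (squares) and replicate 3 (triangles); an asterisk marks the 7 summits also within 500 bp of a protein-coding start. Leu-CAG-1-5 is highest in all 3 lists, at 1763, 607.9 and 1142, and the pooled signal falls to 122.6 at Glu-CTC-2-1.

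Each of the 23 IDR summits had a summit within 100 bp in both replicates' own lists, and 18 did within 50 bp. Such matches were largely built in, because the IDR set was selected for reproducibility in these libraries. The median pooled signal of the 23 was 187, close to the 168 of all IDR peaks. Of the 23, 14 were among the 937 strongest of the 1874. The remaining 13 summits had pooled signals from 197.6 at the leucine gene Leu-TAA-2-1 (-106 bp, 428 bp from the start of Root) to 122.6 at Glu-CTC-2-1 and Glu-TTC-1-6. They also lay at Glu-CTC-2-2 (187.1), at Pro-TGG-1-2 with Ala-AGC-2-2 and Ala-AGC-2-3 (176.2), and at Tyr-GTA-1-5 with Tyr-GTA-1-4 (170.7). Weaker ones lay at Ile-AAT-1-8 (159.5), Phe-GAA-1-2 (146.7), Trp-CCA-2-2 with Gly-GCC-1-9 (146.3), Pro-TGG-1-1 with Val-CAC-1-1 (145.7), Arg-ACG-1-4 with Lys-CTT-1-5 (143.5), Glu-TTC-1-5 (135.4), Asp-GTC-1-5 with Asp-GTC-1-4 (126.4) and Ala-TGC-2-1 (123). The summit at Phe-GAA-1-2 was 332 bp past that gene's start and 27 bp from the start of the ribosomal protein gene RpL17.

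The weakest summits of this group stood farther down the list of replicate 2 than that of replicate 3. The summit at Ala-TGC-2-1 ranked 11810 in replicate 2 (signal 24.24) and 1679 in replicate 3 (83.18). The summits at Glu-TTC-1-5 and Asp-GTC-1-5 ranked 5185 and 4977 in replicate 2, and 1879 and 1252 in replicate 3. At the weakest of all, shared by Glu-CTC-2-1 and Glu-TTC-1-6, the gap was small, with rank 2085 in replicate 2 and 1893 in replicate 3. Of all tRNA genes, 28 lay near the 1874 strongest peaks of replicate 2 alone and 39 near those of replicate 3 alone.

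The genes closest to the 500 bp limit were Ala-TGC-2-1 (403 bp), Tyr-GTA-1-4 (466 bp) and Ile-AAT-1-9 (484 bp) inside it, and Leu-CAA-2-2 (584 bp), Tyr-GTA-1-7 and Asn-GTT-1-1 (688 bp each) outside it. Below the IDR set, the strongest pooled summits at other tRNA genes came close behind. Arg-ACG-1-1 and Lys-CTT-1-1, a pair in an EcR intron, shared one of 121.3 (rank 1890), with ranks of 4664 in replicate 2 and 1676 in replicate 3. Arg-TCG-2-4, in the gene pyd, had one of 116.3 (rank 2084, with 4971 and 2211). Ala-CGC-1-3 and Ala-CGC-1-2, in the gene gol, shared one of 115.5 (rank 2122, with 1965 and 2786). In the first 2 of these 3 the replicate 2 rank was the lower-placed one, as at the end of the IDR set.

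tRNA genes in clusters carried peaks more often than single ones. Genes were joined into a cluster when neighbouring starts lay within 5000 bp, which gave 68 clusters with 214 genes, the largest of 11, and 76 isolated genes. In the pooled list 159 clustered genes had a summit (74.3%, interval 67.9 to 80%) and 28 isolated ones (36.8%, interval 26.1 to 48.7%), the latter a share near the 41% of all genes. In the IDR set the shares were 12.6% (27 genes, interval 8.48 to 17.8%) and 7.89% (6 genes, interval 2.95 to 16.4%), with intervals that overlap. The 6 isolated genes were Gly-TCC-2-2, Gln-TTG-2-1, Ile-AAT-1-8, Ile-AAT-1-9, Leu-TAA-2-1 and Phe-GAA-1-2. The summits at Ile-AAT-1-8 (437 bp from the ATP8A start), Leu-TAA-2-1 (428 bp from Root) and Phe-GAA-1-2 (27 bp from RpL17) also lay at protein-coding promoters. So did some summits at clustered genes, among them those at Tyr-GTA-1-8 and His-GTG-1-3. With neighbours joined up to 20000 bp apart only 3 genes with an IDR summit counted as isolated.

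Clustered genes lie near each other, so 1 summit can count for several of them, and summits were therefore also counted per length of DNA. The merged windows of 500 bp to each side of the start held 0.883 pooled summits per kb at clustered genes, 0.447 at isolated genes, 0.509 at protein-coding genes and 0.354 at other noncoding genes, against 0.224 over the 6 arms. Replicate 2 gave 0.89 at clustered and 0.434 at isolated genes, and replicate 3 gave 0.8 and 0.46. The clustered windows were thus denser in summits than the isolated ones in each replicate. They were also denser in gene starts, with 214 starts in 143.79 kb against 76 in 76.076 kb, so this count does not put the 2 kinds on equal terms. In the pooled list the windows held 127 summits for the 214 clustered genes and 34 for the 76 isolated ones.

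The difference between clustered and isolated genes was seen on 4 of 5 arms and was turned around on X. Pooled summits lay at 19 of 26 clustered and 4 of 15 isolated genes on 2L, at 69 of 78 and 10 of 20 on 2R, at 29 of 35 and 5 of 13 on 3L, and at 39 of 61 and 4 of 18 on 3R. On X they lay at 3 of 14 clustered genes and 5 of 10 isolated ones. It was also seen where protein-coding starts were more than 1000 bp away (107 of 153, 69.9%, against 20 of 58, 34.5%) and where they were nearer (52 of 61, 85.2%, against 8 of 18, 44.4%).

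By cluster size, the pooled share was 63.2% in pairs, 81% in clusters of 3, 81.1% in clusters of 4 to 6 and 79.1% in clusters of 7 to 11. The IDR share was 9.21%, 7.14%, 11.3% and 25.6% in the same classes. The last value rests on 11 of 43 genes in 3 clusters. An IDR summit lay in 11 of 68 clusters (16.2%) and a pooled one in 56 (82.4%), and in 37 clusters every gene had a pooled summit. Among the 937 strongest IDR peaks, 7 clusters had one.

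Within clusters the summits did not follow every gene. The 6 Leu-CAG genes on 3L (8060214 to 8068290) all had summits in the pooled list and in both replicates, 5 of them in the IDR set. The 11 valine, proline, alanine and threonine genes on 3R (17617761 to 17631750) had 3 IDR summits at 5 genes, the last of them 2216 bp from the first base of the cluster, and 8 genes had a pooled summit. In the 7 initiator methionine and glutamate genes on 2R (19725620 to 19728958) all 7 had a summit in both replicates, and the 3 IDR summits lay at 4 glutamate genes. The 11 arginine, asparagine, lysine and isoleucine genes on 2R (6161535 to 6171759), partly inside EcR, had a single IDR summit, between Lys-CTT-1-5 and Arg-ACG-1-4 at one end, and pooled summits at 10 genes. Large clusters without an IDR summit ranged widely: all 7 isoleucine and leucine genes in ATP8A on 2R (13430282 to 13432794) had a pooled summit and 6 had one in both replicates, whereas of the 7 arginine and serine genes on X (14014814 to 14017284) only 2 had one. Of the 6 glutamate genes on 3L (1397695 to 1401852), 5 had a pooled summit but none had one in both replicates.

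**Figure D3:**
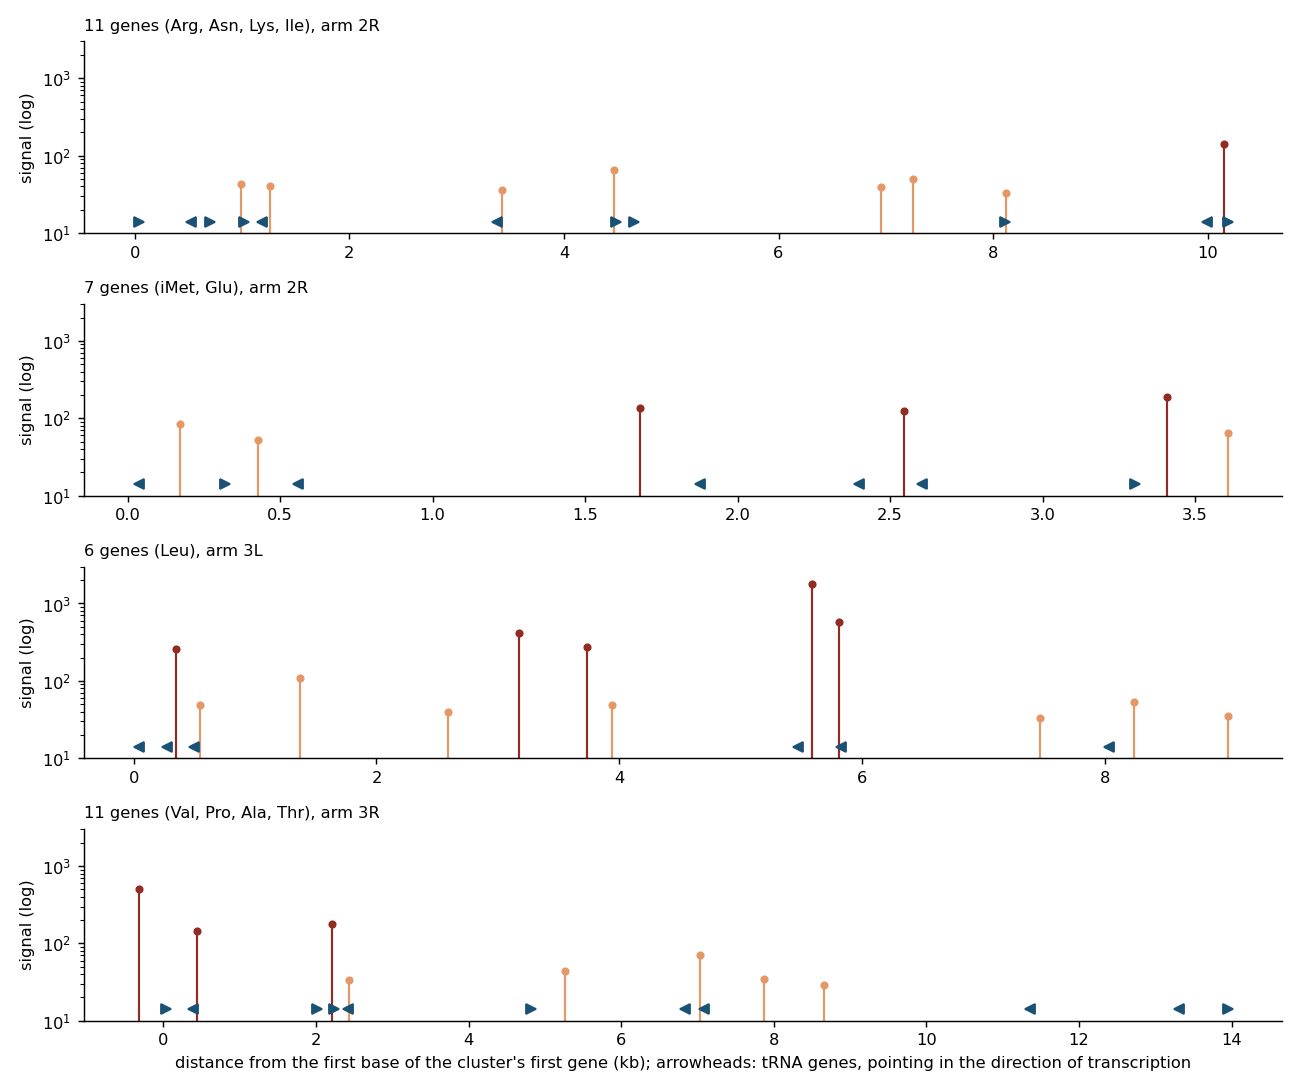
The 4 large tRNA clusters with an IDR summit, drawn to scale by distance from the first base of the first gene (x axis, kb), with arrowheads for tRNA genes pointing in the direction of transcription. Vertical lines are summits of the pooled list with their signal (y axis, authors' value, log axis), dark for summits also in the IDR set and light for the others, and include summits more than 500 bp from a gene start. The highest line, 1763, stands beside Leu-CAG-1-5 in the 3L cluster, and in the 3R cluster the 3 dark lines are all near the left end.

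By arm, the pooled share ran from 80.6% on 2R (79 of 98) and 70.8% on 3L (34 of 48) through 56.1% on 2L (23 of 41) and 54.4% on 3R (43 of 79) to 33.3% on X (8 of 24). The IDR set had 15 genes on 2R, 9 on 3R, 5 on 3L and 2 each on 2L and X. Of the 156 tRNA genes outside protein-coding genes, 26 had an IDR summit (16.7%, interval 11.2 to 23.5%) and 94 a pooled one (60.3%). Of 72 genes in an intron on the opposite strand, 4 had an IDR summit (5.56%, interval 1.53 to 13.6%) and 49 a pooled one (68.1%), and of 49 in an intron on the same strand, 2 (4.08%) and 34 (69.4%). In these introns the pooled share was no lower than outside genes, while the IDR share was lower with an overlapping interval. Of the 6 genes in introns of genes on both strands, 1 had an IDR summit (16.7%) and 5 a pooled one. None of the 7 genes that overlapped an exon had an IDR summit, and 5 had a pooled one.

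Summits were spread over most amino acids. The genes fell into 22 groups (20 standard amino acids, with initiator methionine, iMet, apart from elongator methionine, and selenocysteine, SeC) and 45 anticodons, and each group had at least 1 gene with a pooled summit. Leucine had the most genes in the IDR set (6 of 22, of which 5 in a single cluster), followed by glutamate (4 of 19, all in a single cluster), alanine (3 of 17) and tyrosine (3 of 10). Asparagine, aspartate, glycine, isoleucine and proline had 2 each, and arginine, glutamine, histidine, lysine, phenylalanine, tryptophan and valine 1 each. The 20 serine, 17 threonine, 7 cysteine, 6 elongator methionine, 6 initiator methionine and 1 selenocysteine genes had none in the IDR set.

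The pooled shares were high for isoleucine (10 of 11), asparagine (9 of 10), glutamate (16 of 19) and initiator methionine (5 of 6), and low for valine (6 of 15). Arginine, with the most genes, had 13 of 26, and serine 10 of 20. Replicates differed within groups: glutamate had 11 genes with a summit in replicate 2 and 13 in replicate 3, both in 10, and initiator methionine had 5, 3 and 2. With so few genes a group, most of them in shared clusters, the amino acid and the cluster cannot be told apart.

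**Figure D4:**
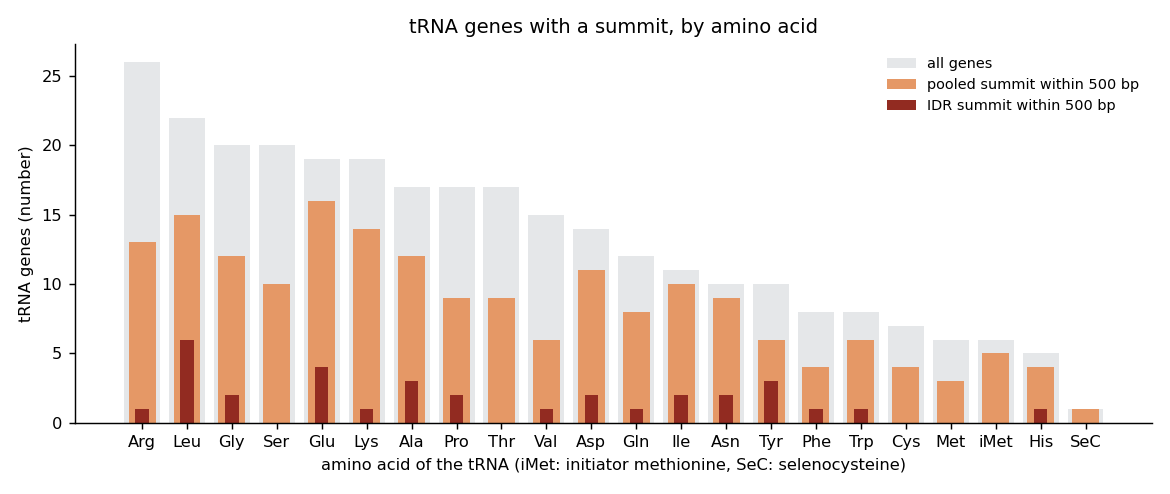
Number of tRNA genes (y axis) for each amino acid (x axis), all genes in grey, those with a pooled summit within 500 bp of the start in light colour and those with an IDR summit in dark colour. Leucine has 6 dark of 22 genes, while serine, threonine, cysteine, both kinds of methionine and selenocysteine have none.

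In the pooled list and both replicates, though not in the IDR set or at isolated genes in the pooled list and replicate 3, a larger part of the summits lay close to the start at tRNA genes than at protein-coding genes. Each pooled summit was placed against its nearest tRNA gene start, and the median position of the 161 was -14 bp, with quartiles of -84 and 96 bp. Taking the nearest of several starts shortens distances where genes are packed, and 183 tRNA genes had a neighbour within 1000 bp. How much this adds to the shares was not tested. Within 100 bp of the start lay 85 (52.8%, interval 44.8 to 60.7%), against 41% of the 6132 pooled summits at protein-coding genes and 31.6% of the 76 at snoRNA genes. The replicates gave medians of 2 bp (48.4% within 100 bp, against 37.3% at protein-coding genes) and -16 bp (48% against 39.7%). Near isolated tRNA genes 29.4% of 34 pooled summits lay within 100 bp, against 45.5% of 33 in replicate 2 and 34.3% of 35 in replicate 3.

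The 50 bp just before the start held the most pooled summits, 31 of 161 (19.3%), against 11.1% at protein-coding genes. In replicate 3 that bin held 16.7% and was again the fullest, whereas in replicate 2 it held 12.4% and the bin from 50 to 100 bp past the start held 14.3%. Isolated tRNA genes did not show this pattern: the 50 bp before the start held 3 of 34 pooled summits (8.82%), 3 of 33 in replicate 2 (9.09%) and 1 of 35 in replicate 3 (2.86%). Their fullest bin in all 3 lists was that from 50 to 100 bp past the start, with 14.7%, 21.2% and 17.1%. By the bounds of the gene, 29 pooled summits (18%) lay inside it, 50 (31.1%) in the 100 bp before it, 20 (12.4%) in the 100 bp after it and 62 farther away. The IDR summits were more scattered, with a median of -24 bp and 9 of 23 within 100 bp (39.1%, against 46.2% of 565 at protein-coding genes), and those at Leu-CAG-1-6 and Pro-TGG-1-2 were the 2 inside a gene.

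**Figure D5:**
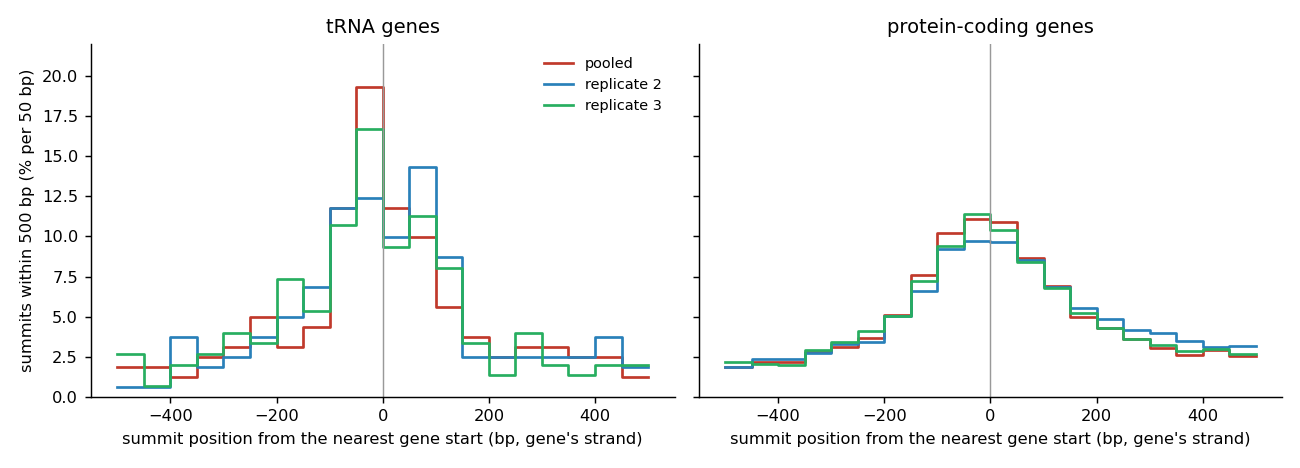
Position of summits relative to the nearest gene start (x axis, bp along the gene's strand, negative before the start), as a percentage of the summits within 500 bp for each 50 bp bin (y axis), at tRNA genes (left) and protein-coding genes (right), in the pooled list and both replicates. The pooled tRNA line reaches 19.3% in the bin just before the start, the protein-coding one 11.1%.

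Identical copies bear on where reads from a tRNA gene can be placed, and how reads that match several places were handled is not given in the sources used here. Among the 290 genes were 95 distinct sequences with up to 13 identical copies. A pooled summit lay at 27 of 52 genes with a sequence of their own (51.9%), at 62 of 103 with 2 to 5 copies (60.2%) and at 98 of 135 with 6 or more (72.6%), and an IDR summit at 13.5%, 5.83% and 14.8%. The pooled share was higher with more copies, as was that of replicate 3 (50%, 55.3% and 64.4%). The replicate 2 share (57.7%, 56.3% and 61.5%) and the IDR share were not ordered in this way. In the gene bodies 31-base words were rarely unique in the genome (median 0% unique, under 50% unique in 261 genes). Of the 33 genes with an IDR summit, 32 had under 50% unique words in the body, although 7 of the 33 had a sequence of their own. A whole sequence shared with no other gene can thus still hold words found elsewhere. In the 200 bp on either side of the 290 genes the median was 100%. Over the 500 bp on both sides of the start the median was 92.1%, with 90.6% at genes with an IDR summit and 95% at the 78 genes without a summit in any list. Of the 6 genes with under 50% unique words in that window, 2 had a pooled summit and none an IDR summit.

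The sequence features that place RNA polymerase III were about as common in genes without a summit as in those with one. Most genes annotated as tRNA hold these features with or without a peak, so the shares cannot tell whether peaks depend on them. The contrast with protein-coding genes likewise shows what kind of genes these are, not where peaks lie. The A core was found in 243 of the 290 genes (83.8%) and the B core in 271 (93.4%), against 7.44% and 0.516% in the first 73 bases of protein-coding genes. Of the 33 genes with an IDR summit 84.8% had the A core and 93.9% the B core, and of the 103 genes without a pooled summit 88.3% and 94.2%. A run of 4 T within 30 bases after the gene was found in 277 (95.5%), in 97% of those with an IDR summit and in 97.1% of those without a pooled one, against 22% of stretches of the same length before protein-coding starts. In the 101 bp windows centred on summits, searched on both strands, 3 of the 23 IDR summits at tRNA genes held the B core (13%) and 52 of the other 1851 did (2.81%). These 23 were chosen for lying within 500 bp of a tRNA gene start, and most tRNA genes hold the B core. A higher share was therefore built into the choice, and it rests on 3 summits. The A core was found in 39.1% of the summits at tRNA genes and 34% of the others, and GAGAG, bound by GAGA factor, in 17.4% and 17.1%. The DNA replication-related element TATCGATA was found in 0 of 23 and 1.46%, CAGGTA, a site of the early activator Zelda, in 4.35% and 2.16%, and the E-box CATATG in 0 of 23 and 3.73%. Each window was counted once per motif, and motifs could overlap.

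The replicates shared most of their tRNA genes, but fewer of the summits at them. A summit of each replicate lay within 500 bp of 135 genes (46.6%, against 29.7% of all genes), 36 had one only in replicate 2, 35 only in replicate 3 and 84 in neither. Of the tRNA genes with a summit in either, 65.5% had one in both, against 59% of all genes and 60.8% of protein-coding genes. With a limit of 250 bp, 89 genes had one in both. Summit by summit, 71 of 161 replicate 2 summits at tRNA genes (44.1%) had a replicate 3 summit within 100 bp, as did 32.7% of all nuclear replicate 2 summits, and 71 of 150 replicate 3 summits (47.3%) had a replicate 2 summit that close. Both lists were called against the same control alignment, whose part in what they share was not tested.

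Among the protein genes of the tRNA pathway few had a reproducible peak, as was so for all protein-coding genes (5.23%), and most had one in the pooled list. The genes for RNA polymerase III, its initiation factors and regulators had 1 of 26 in the IDR set, Polr3E, a polymerase subunit (-162 bp, signal 166.7, rank 954), while 19 (73.1%) had a pooled summit. Of 35 genes for aminoacyl-tRNA synthetases, which load tRNAs with their amino acids, ThrRS, the threonine enzyme, was in the IDR set, with a signal of 892.1 and rank 24 at -351 bp, and 23 (65.7%) had a pooled summit. Of 36 genes for tRNA processing and modification, 4 were in the IDR set (11.1%) and 27 (75%) had a pooled summit. The 4 were Elp5 (signal 245.2), a subunit of the Elongator complex that modifies the wobble base, Trmt61 (179), a methyltransferase subunit, Pus10 (131.1), a pseudouridine synthase, and Rpp25 (124.1), a protein of RNase P and RNase MRP. Beside these, 5.23% of protein-coding genes were in the IDR set and 44.2% had a pooled summit.

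Of the other short genes of the kind that RNA polymerase III transcribes, the 100 annotated 5S genes, 4 of them listed as pseudogenes, had no IDR summit and 1 had a pooled one. These genes are a tandem array of near-identical copies, where reads may not be placed uniquely, so the low count cannot be read as absence of the protein. Among 10 others, 1 was in the IDR set and 6 had a pooled summit. That 1 was snRNA:7SKa, of the 7SK RNAs that hold back the elongation factor P-TEFb, with a summit 225 bp past its start and signals of 140.2 (rank 1381) pooled, 62.18 (rank 1355) in replicate 2 and 88.52 (rank 1458) in replicate 3. The other 5 were RNaseMRP:RNA (pooled signal 51.13), RNaseP:RNA (47.73) and the spliceosomal U6 genes snRNA:U6:96Aa (42.57), snRNA:U6:96Ab (53.44) and snRNA:U6:96Ac (91.23). Their best pooled rank was 3520, below the IDR set, and snRNA:U6:96Ab had no summit in replicate 3.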

How the data were processed

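No deposited value was rescaled. Per the labels and the lists of files, peaks were called on each replicate and on both pooled, against 1 control, on dm6. Which aligner, caller and IDR threshold were used is not given in the sources used here. Signal is the authors' value per peak, with no stated scale, and was used to rank peaks within a list. The deposited −log10 q value was tied among many strong peaks and was not used for ranking. Mitochondrial peaks entered no comparison.

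A gene was counted when a summit lay within 500 bp of its annotated start (Ensembl release 115). Sequences came from the RefSeq Release 6 assembly. A motif was searched on the gene's strand in genes and on both strands at summits. Depth is unknown, and intervals cover counting only. No test between groups was made: there is 1 group, and the replicates come from separate biosamples of 1 line, per the labels. The members and gene lists were chosen with earlier results of these data known. From the gene lists, names caught by pattern that belong to other pathways (4 SNARE protein genes and the deadenylase gene Pop2) were removed after the names were seen. All tRNA genes with an IDR summit are named, with full values for the 10 strongest summits, then the 5 genes with the next strongest pooled summits. Alternatives were other distances, the gene body or whole peak in place of the start and summit, the 937 strongest IDR peaks, each replicate alone, and other cluster and matching distances. The code recovered known counts on simulated data. Tables were made with pandas 2.3.3 and NumPy 2.4.6 in Python 3.11.15, intervals with SciPy 1.17.1 and figures with matplotlib 3.10.9.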

Additional observations from a re-analysis of the deposited data

Results flagged for a closer look

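The replicate 2 list held 19 peaks on the mitochondrial genome, which no comparison above uses, and the other 3 lists held 0. A summit lay within 500 bp of 18 of the 22 mitochondrial tRNA genes, which are transcribed by the mitochondrial polymerase and not by RNA polymerase III. The strongest of these peaks was rank 1 of the whole replicate 2 list, with a signal of 6952. The pooled list held none either, although it was made from both replicates, and whether mitochondrial peaks were removed from some lists is not known, so the 0 in replicate 3 cannot be read as absence of signal there.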

How the results depend on the processing

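Of 41 alternative values of 9 results, 33 stayed within 1.5 times the reported count or, for positions, within the spread, and 8 moved further. The 33 genes with an IDR summit became 16 when the peak interval had to overlap the gene and 20 among the 937 strongest IDR peaks. Among those 937, the distinct summits fell from 23 to 14, those also at a protein-coding start from 7 to 3 and the clusters from 11 to 7. With a limit of 250 bp the genes with a summit in both replicates went from 135 to 89. Isolated genes with an IDR summit went from 6 to 3 with clusters joined up to 20000 bp. With 1 replicate's strongest peaks in place of the IDR set, summits at protein-coding starts were between 4 (without replicate 3) and 8 (without replicate 2). The cause of these moves was not tested beyond what each alternative removes. No paired analysis was possible because there is 1 group. Leaving out tRNA pseudogenes gave no value, since the members hold none. Depth is unknown, so a gene without a summit is not shown to lack the protein.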
